A study of Mus musculus with 2 samples.

Results

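The Kruppel-like factors followed here are 9 genes of the Klf family, Klf2, Klf3, Klf4, Klf5, Klf6, Klf9, Klf10, Klf13 and Klf16, out of 14261 rows in a table of gene expression in mouse embryonic stem (ES) cells. They were chosen by name, and all 9 were found in the table, each on 1 row. Klf2, Klf4 and Klf5 form the naive-state set, and the 6 other members are set beside them. RNA-seq was made from 2 suspension cultures of cells labelled TRE-ESC, kept in dishes of low adsorption in N2B27 medium with the cytokine LIF and 2i, which is a mix of inhibitors of the kinases MEK and GSK3. One culture received doxycycline (dox), a drug that switches on tetracycline-controlled transgenes, and the other, without dox, received no agent. Both were labelled 36 h, and the title of the series names c-Jun, the AP-1 protein encoded by Jun, as the inducer of differentiation. Beyond the letters TRE in the label, the sources used here do not give the promoter of the transgene. Nor do they give the strain, the dose or whether the line is a single clone. There was 1 library per group, so no value has a spread between cultures, no test was made and every difference below has no replicate check.

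Kruppel-like factors are transcription factors with zinc fingers at their C-terminal end, which bind GC boxes and CACCC elements, as do the related Sp factors. In mouse ES cells Klf2, Klf4 and Klf5 are known as overlapping supports of self-renewal: LIF acts through STAT3 on Klf4 and Klf5, while inhibition of the kinase MEK, a part of 2i, is known to spare the Klf2 protein. The other members do different work, as repressors that recruit CtBP (Klf3) or Sin3 (Klf9, Klf10, Klf13 and Klf16), or as an early response gene of injured and growing tissue (Klf6).

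The upstream sequences of 4 members are shown because these genes had the highest ratio, the lowest ratio and the 2 ratios nearest to the 2-fold threshold in the comparison below. They were taken from RefSeq promoters of the build GRCm38.p6, which held entries for 6 of the 9 members, and Klf5, Klf10 and Klf16 had none. Each runs 5′ to 3′ from 250 to 31 bases before the RefSeq start, 220 bases in all. Klf2 is from chr8:72318812-72319031 on the plus strand, Klf4 from chr4:55532506-55532725 on the minus strand, Klf6 from chr13:5861239-5861458 on the plus strand and Klf9 from chr19:23140976-23141195 on the plus strand. Capitals mark the GC box letters GGGCGG, or CCGCCC on the other strand, in Klf2, Klf4 and Klf6, and a match to the AP-1 letters TGANTCA in Klf9.
Klf2: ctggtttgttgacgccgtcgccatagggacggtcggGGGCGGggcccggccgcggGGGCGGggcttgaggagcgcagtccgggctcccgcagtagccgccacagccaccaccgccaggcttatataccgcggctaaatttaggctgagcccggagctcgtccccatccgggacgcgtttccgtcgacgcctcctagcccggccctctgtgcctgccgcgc
Klf4: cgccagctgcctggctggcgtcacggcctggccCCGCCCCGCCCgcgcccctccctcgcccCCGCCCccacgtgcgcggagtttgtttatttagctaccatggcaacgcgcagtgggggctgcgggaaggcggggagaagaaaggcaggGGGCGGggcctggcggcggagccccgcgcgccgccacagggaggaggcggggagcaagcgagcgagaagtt
Klf6: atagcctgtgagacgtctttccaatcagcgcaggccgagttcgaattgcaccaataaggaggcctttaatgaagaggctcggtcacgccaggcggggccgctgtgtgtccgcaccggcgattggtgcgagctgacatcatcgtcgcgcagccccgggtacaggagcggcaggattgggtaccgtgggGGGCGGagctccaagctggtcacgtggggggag
Klf9: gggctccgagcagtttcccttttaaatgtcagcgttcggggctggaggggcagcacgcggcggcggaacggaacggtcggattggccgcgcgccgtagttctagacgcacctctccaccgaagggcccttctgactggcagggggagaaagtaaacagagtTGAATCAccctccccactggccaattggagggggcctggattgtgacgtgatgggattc

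With overlapping matches counted, GC box letters stood 2 times in the Klf2 window, 4 times in that of Klf4, 6 times in that of Klf3 and 1 time each in those of Klf6 and Klf13. The Klf9 window held none. Of all 32851 windows of the same length 28.5% held these letters. The GC content of the 6 member windows ran between 61.4% for Klf9 and 79.1% for Klf3, against a median of 51.8% over all windows. The Klf3 window, chr5:64803271-64803490, runs past the annotated start of the gene at 64803388. Part of the Klf3 window is thus not upstream of the annotated gene. The AP-1 letters TGANTCA, in which N is any base, stood in the Klf9 window as TGAATCA and in none of the other 5, and in 6.12% of all windows. This pattern takes in known binding sequences of c-Jun with its partners but is wider than these. Other forms of c-Jun site were not searched for in any window. The STAT letters TTCNNNGAA stood in none of the 6 windows and in 6.27% of all windows. A match is a description of these letters and does not show that a factor binds there.

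The comparison of interest was whether the naive-state Klf genes and the other members differed in the same way between the library with dox and the library without dox. The library labelled with dox had the larger Jun value, 3821 with dox and 55 without dox. Of the 9 members, 1 was lower with dox by 2-fold or more (Klf4), 1 was higher by as much (Klf6), and 7 were within 2-fold. The same calls took in 5.49% and 9.23% of the 8547 genes that reached a floor of 50 in at least 1 library, as all 9 members did. Folds and log2 ratios are dox over no dox with a pseudocount of 10 in each library, which understates the differences of low genes. Of the 4 members that reached 250 (Klf2, Klf4, Klf5 and Klf6), 1 was lower and 1 was higher, where 4.71% and 9.56% of all genes at that level were. At a 1.5-fold threshold 4 members were lower (Klf2, Klf4, Klf9 and Klf16), where 17.7% of all genes were, and 2 were higher (Klf6 and Klf10), where 16.7% of all genes were. At a 4-fold threshold 0 members were lower, beside 0.644% of all genes, and 1 was higher (Klf6), beside 3.11% of all genes.

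**Figure D1:**
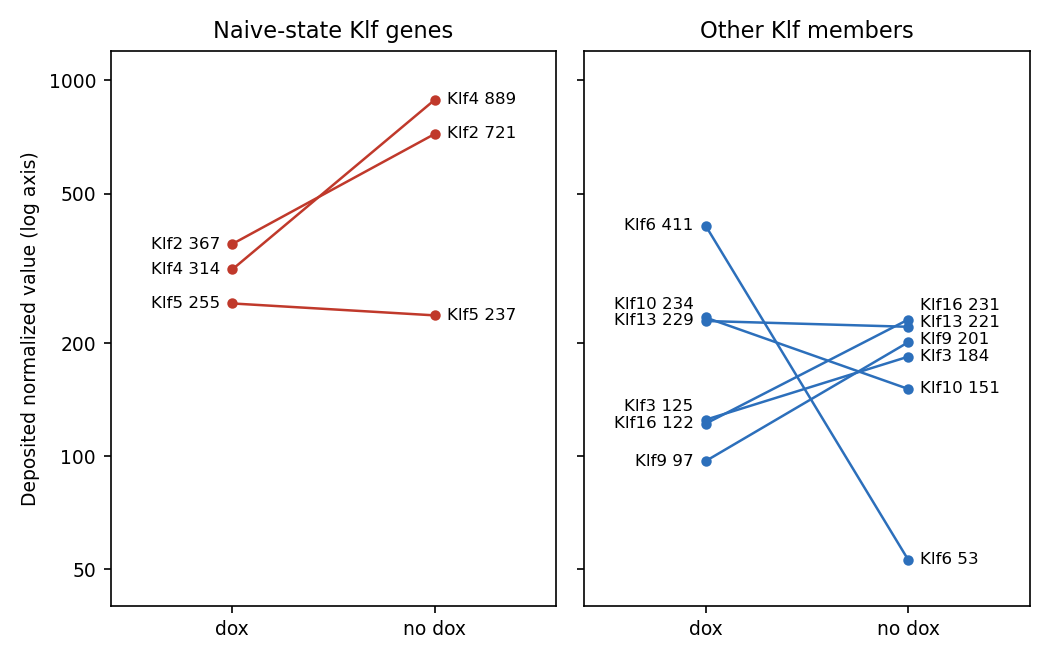
Deposited normalized values (log axis) of the 9 Klf members in the library with dox and the library without dox, 1 library each, with a line for each gene. Klf2 and Klf4 stood lower with dox, at 367 and 314 against 721 and 889 without dox, while Klf6 stood higher, at 411 against 53.

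The median log2 ratio was −0.96 over the 3 naive-state genes and −0.24 over the 6 other members, beside −0.08 over all 8547 genes. The naive-state median was lower by 0.72 on the log2 scale, and this difference became −0.39 when the trend of the ratio on transcript length was removed. It was −0.43 with the 5 further Klf genes counted among the others, an alternative added after the data were seen, and −3.70 with a floor of 250, which left Klf6 alone among the others. The sets overlapped: Klf5 of the naive-state set had a ratio above those of Klf3, Klf9, Klf13 and Klf16, and Klf9 and Klf16 of the other set lay close to Klf2. Each set thus held members on both sides of 0.

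Klf4, the naive-state factor also known from the reprogramming of somatic cells, had the lowest ratio of the 9 members. Its value was 314 with dox and 889 without dox, 2.77-fold lower with dox, a log2 ratio of −1.47. This placed it at rank 138 from the lowest ratio among the 8547 genes. Klf4 lies on chromosome 4 between 55527143 and 55532466, minus strand (GRCm38), and its longest annotated transcript has 5 exons and 3029 nt. Across 6 other settings of pseudocount, floor, centring and length its log2 ratio stayed between −1.50 and −1.34, though a change of floor alone cannot alter it.

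Klf2, a factor of naive ES cells that is also known from endothelial cells under flow, had a value of 367 with dox and 721 without dox. It was 1.94-fold lower with dox, a log2 ratio of −0.96 and rank 531 from the lowest, so it missed the 2-fold threshold by little. The Klf2 ratio was −0.70 with the length trend removed, and its transcript of 1847 nt is the shortest among the members. Klf2 lies on chromosome 8 between 72319033 and 72321656, plus strand and has 3 exons.

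Klf5, known in ES cells and in the dividing cells of epithelia, did not share the direction of Klf2 and Klf4. Its value was 255 with dox and 237 without dox, a log2 ratio of 0.10, which is 1.07-fold. The Klf5 log2 ratio ran between 0.09 and 0.21 across the 6 other settings. Klf5 lies on chromosome 14 between 99298691 and 99315036, plus strand, with 4 exons and 3352 nt in its longest transcript.

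**Figure D2:**
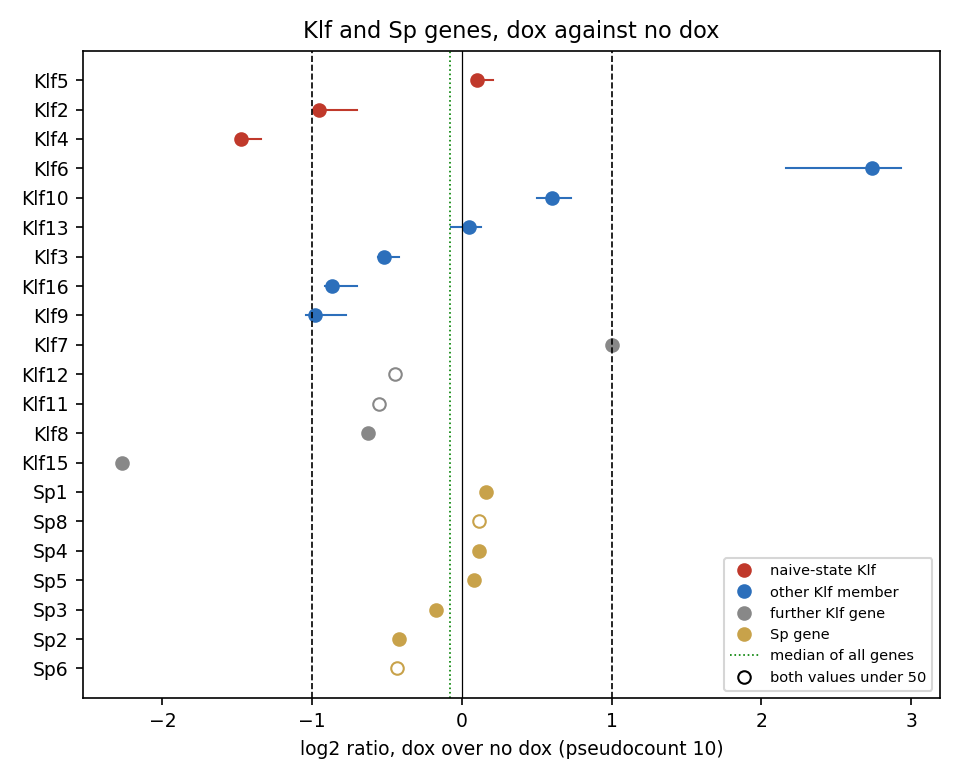
Log2 ratio of dox over no dox (pseudocount 10) for the Klf and Sp genes of the table, with lines at 2-fold (dashed) and at the median of all genes (dotted), and with horizontal bars over the range of settings for the 9 members. Klf6 at 2.74 and Klf4 at −1.47 lie past 2-fold, and Klf2 at −0.96 and Klf9 at −0.98 lie just inside it. Of the further Klf genes Klf15 lies lowest at −2.27, and Klf7 lies on the upper 2-fold line. Bars show settings, not replicates.

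Among the other members Klf6 stood apart. Klf6, a broadly expressed factor known as an early response gene, had a value of 411 with dox and 53 without dox, 6.68-fold higher with dox and a log2 ratio of 2.74. It held rank 139 from the highest ratio among the 8547 genes and rank 1475 by value among all rows with dox, against rank 7572 without dox. Its low value without dox makes the ratio depend on the pseudocount, and it was 2.93 with a pseudocount of 1 and 2.16 with a pseudocount of 50. Klf6 lies on chromosome 13 between 5861482 and 5870394, plus strand and has 4 exons and 4225 nt.

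Klf10, first known as an early gene induced by TGF-beta, had the second highest ratio of the members. Its value was 234 with dox and 151 without dox, 1.52-fold higher with dox and a log2 ratio of 0.60, within the 2-fold threshold. Klf10 lies on chromosome 15 between 38291463 and 38300706, minus strand. Klf7, which is the closest relative of Klf6 and is known from growing axons, is in the table but not among the 9 members. Klf7 had values of 54 with dox and 22 without dox, which is exactly 2-fold with the pseudocount and close to the floor. Annotated genes on the other strand, Gm13748 and Gm26649, overlap the exons of Klf7, and the counting is not stated to use strand.

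Klf9, Klf13 and Klf16, whose longest transcripts have 2 exons and whose proteins recruit Sin3, did not have like ratios. Klf9, known as a target of glucocorticoid and thyroid hormone receptors, had a value of 97 with dox and 201 without dox, a log2 ratio of −0.98. With a pseudocount of 1 it was −1.04 and past 2-fold, and with a pseudocount of 50 it was −0.77. Klf16, described as a repressor of dopamine receptor genes, had a value of 122 with dox and 231 without dox, 1.83-fold lower with dox. Klf13, known as a regulator of the chemokine gene Ccl5 in T cells, had a value of 229 with dox and 221 without dox, a log2 ratio of 0.05, which was −0.08 with the length trend removed. Klf11, a relative of Klf10 with the same kind of Sin3 contact, was under the floor at 22 with dox and 37 without dox. Klf9 lies on chromosome 19 between 23141226 and 23168134, plus strand, Klf13 on chromosome 7 between 63886351 and 63938915, minus strand, and Klf16 on chromosome 10 between 80567124 and 80577321, minus strand.

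Klf3, Klf8 and Klf12 are the family's CtBP-binding repressors, and the values of each were lower with dox by less than 2-fold. Klf3 had a value of 125 with dox and 184 without dox, a log2 ratio of −0.52. Klf8 had 122 with dox and 194 without dox, a log2 ratio of −0.63, and Klf12 was under the floor at 12 with dox and 20 without dox. Klf3 lies on chromosome 5 between 64803388 and 64832901, plus strand, and an annotated gene on the other strand, Gm20033, overlaps its exons. The counting is not stated to use strand, so reads from Gm20033 may not have been told apart from those of Klf3.

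Among 5 further Klf genes outside the 9 members, Klf15 had the largest difference. Klf15, known as a regulator of glucose and amino acid metabolism that responds to glucocorticoids, had a value of 7 with dox and 72 without dox, a log2 ratio of −2.27 at rank 31 from the lowest. It is a low gene whose larger value lies near the floor of 50. With all 14 Klf genes counted, 12 reached the floor, of which 2 were higher by at least 2-fold (Klf6 and Klf7), 2 lower by as much (Klf4 and Klf15) and 8 within 2-fold. Among all genes these shares were 9.23%, 5.49% and 85.3%. The median log2 ratio of the 12 Klf genes at the floor was −0.58. Klf1, Klf14 and Klf17 were not analysed here.

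The Sp genes encode proteins that bind the same kind of GC box. The table listed 7 Sp genes, and all 5 that reached the floor were within 2-fold, as were 85.3% of all genes, so this count is near that of genes in general. The median log2 ratio of these 5 Sp genes was 0.08. Sp1, a broadly expressed activator, had a value of 621 with dox and 555 without dox. Sp3 had 377 with dox and 427 without dox, and Sp5, known as a target of Wnt signalling in ES cells, had 355 with dox and 335 without dox. Sp2 had 120 with dox and 164 without dox, and Sp4 had 68 with dox and 62 without dox. Sp6, at 13 with dox and 21 without dox, and Sp8, at 3 with dox and 2 without dox, were under the floor. Annotated genes on the other strand overlap the exons of Sp2 (D030028A08Rik), Sp3 (Sp3os) and Sp6 (Gm11532). The counting is not stated to use strand for these either.

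**Figure D3:**
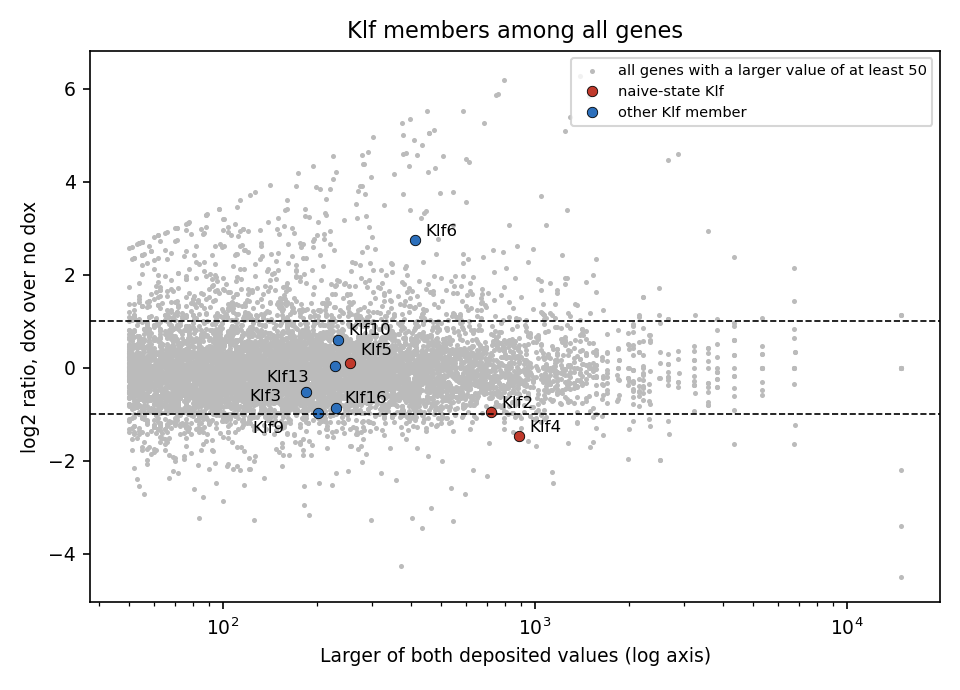
Log2 ratio of dox over no dox against the larger of both deposited values (log axis) for the 8547 genes at or above the floor of 50, with the 9 Klf members marked and lines at 2-fold. Klf4 lies below the lower line at −1.47, Klf6 lies above the upper line at 2.74, and the other 7 members lie between the lines, with Klf2 and Klf9 close to the lower one.

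To order the members by level, their values were divided by the length of the longest annotated transcript, as deposited value per kb. The normalization is not stated, so the values may already be scaled for length, and the order below and the shares after it hold only if they are not. Undivided, the highest value was that of Klf6 with dox, at 411, and that of Klf4 without dox, at 889. Per kb, Klf2 was the highest member in both libraries, at 199 with dox and 390 without dox. Klf4 came second in both, at 104 with dox and 293 without dox. Next in order with dox was Klf6, at 97.3, against 12.5 without dox, where it was the lowest of the 9. Klf16 stood at 45.6 with dox and at 86.4 without dox, where it was next in order after Klf4. Klf5 stood at 76.1 with dox and 70.7 without dox, and Klf10 at 76.9 with dox and 49.6 without dox. No spread is known for either library, so it cannot be said which neighbours in this order differ, and Klf10 and Klf5 with dox were almost equal.

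Summed over the 9 members, the value per kb was 680 with dox and 1018 without dox. The 3 naive-state genes made up 55.7% of this sum with dox and 74.1% without dox. Klf4 alone made up 15.3% with dox and 28.8% without dox, and Klf6 made up 14.3% with dox and 1.23% without dox. The shares of Klf5 and Klf10 were also larger with dox, at 11.2% and 11.3%, against 6.95% and 4.87% without dox, but shares of one sum are not independent of each other. The authors' normalization gives both libraries nearly the same distribution of values, so these sums show proportions and no amount of RNA per cell.

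**Figure D4:**
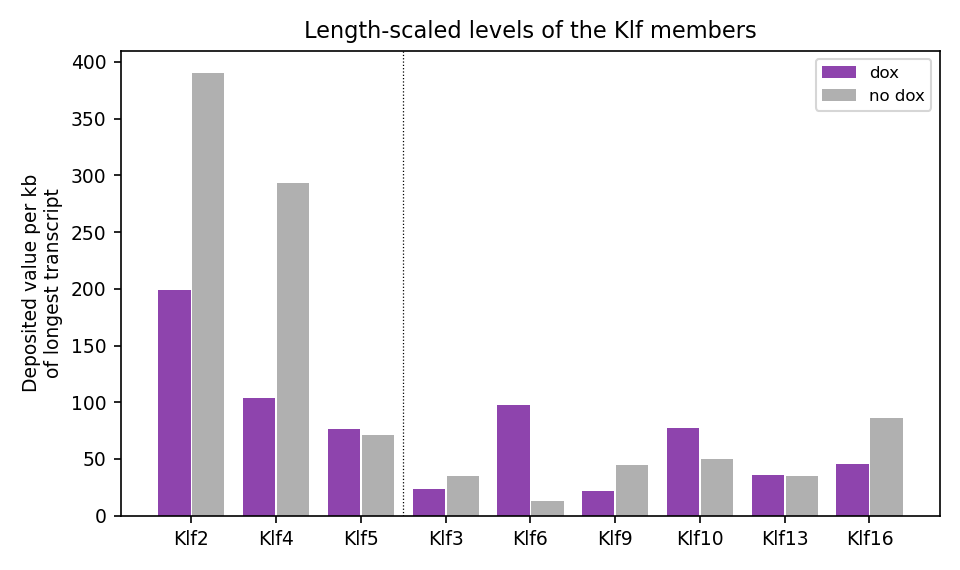
Deposited value per kb of the longest annotated transcript for each Klf member, with bars for the library with dox (left of each pair) and the library without dox (right), 1 library each. Klf2 and Klf4 are the tallest in both libraries, and Klf6 is next in height with dox, at 97.3, and lowest without dox, at 12.5.

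The genes upstream of the naive-state Klf genes gave values in both directions. Of 8 genes 3 were higher with dox by 2-fold or more (beside 9.23% of all genes) and 1 was lower by as much (beside 5.49%), with a median log2 ratio of 0.18. The lower one was Lifr, the LIF receptor gene, with a value of 59 with dox and 157 without dox. Stat3, the factor that carries the LIF signal to Klf4, had 209 with dox and 375 without dox, and its feedback inhibitor gene Socs3 had 114 with dox and 227 without dox, both within 2-fold. The higher ones were the kinase genes Jak1, at 368 with dox and 136 without dox, and Jak2, at 119 with dox and 37 without dox, and Mef2d, of a family known to activate Klf2 in endothelial cells, at 396 with dox and 152 without dox. The shared receptor chain gene Il6st had 532 with dox and 351 without dox.

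Genes of the naive network, which the proteins of Klf2, Klf4 and Klf5 bind or act with, were mostly lower with dox. Of 13 genes 10 were lower by 2-fold or more (beside 5.49% of all genes), 0 were higher (beside 9.23%) and 3 were within 2-fold, with a median log2 ratio of −1.17 beside −0.08 over all genes. This list, like the other lists here, was chosen with earlier results of these data known, so the count is a description only. Nanog had a value of 623 with dox and 2508 without dox, Esrrb had 500 with dox and 1531 without dox, and Tcl1, an activator of the kinase AKT, had 12 with dox and 188 without dox. Fbxo15, an ES cell gene of a ubiquitin ligase subunit, had 244 with dox and 621 without dox, and Prdm14, a repressor of differentiation genes, had 50 with dox and 177 without dox. Mycn had 57 with dox and 189 without dox, Nr0b1 had 77 with dox and 184 without dox, and Sall4 had 287 with dox and 590 without dox. Tfcp2l1, a LIF-responsive naive factor, had 1208 with dox and 2672 without dox, and Zfp42, a naive marker, had 459 with dox and 1047 without dox. Within 2-fold were Sox2 at 521 with dox and 1042 without dox, Tbx3 at 245 with dox and 443 without dox, and Pou5f1, the Oct4 gene, at 3572 with dox and 3230 without dox. In this order the Klf4 ratio of −1.47 lay among the 10 lower genes, Klf2 lay between Sox2 and Tbx3, and Klf5 lay next to Pou5f1.

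**Figure D5:**
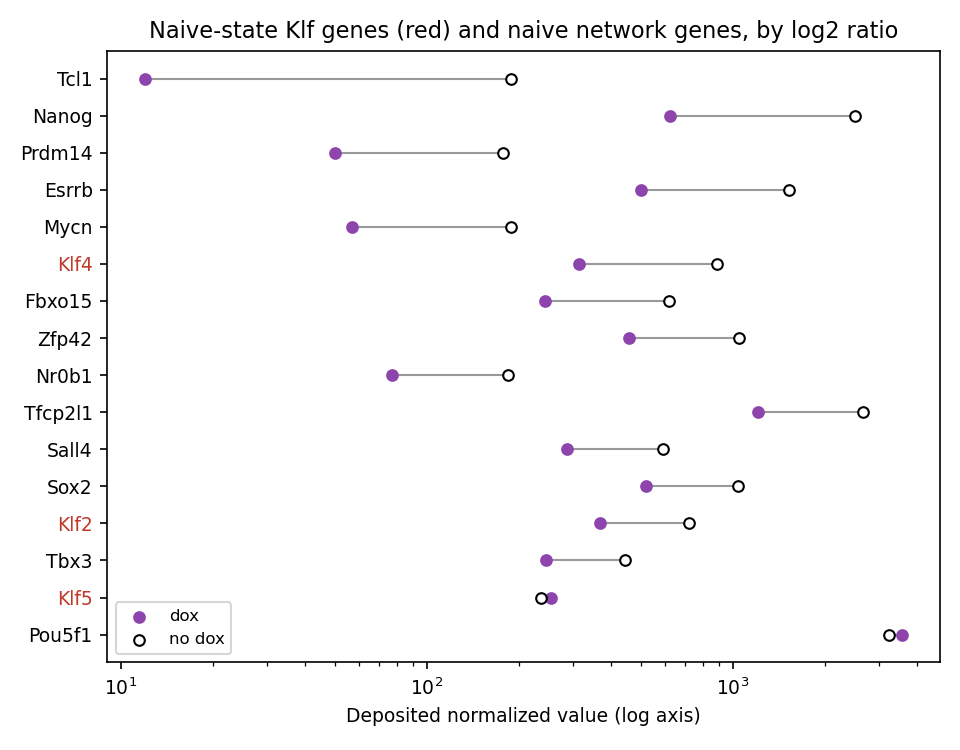
Deposited normalized values (log axis) with dox (filled) and without dox (open) of Klf2, Klf4 and Klf5 (red names) and 13 naive network genes, ordered by log2 ratio from the lowest at the top. Klf5 and Pou5f1 are the genes whose value with dox lies to the right of the value without dox, at 255 against 237 and 3572 against 3230.

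The genes of cofactors and of proteins that degrade Klf factors were within 2-fold in 11 of 11 cases, near the 85.3% of all genes that were, with a median log2 ratio of −0.01. Among them the CtBP genes Ctbp1 had 246 with dox and 198 without dox and Ctbp2 had 231 with dox and 360 without dox. The deacetylase genes of Sin3 complexes were Hdac1 at 1101 with dox and 1417 without dox and Hdac2 at 423 with dox and 753 without dox. Wwp1, a ubiquitin ligase known to act on Klf2 and Klf5, had 217 with dox and 218 without dox.

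Klf6 and Klf10 are often counted with the immediate early genes, and these were mostly low in both libraries. Of 12 genes in that list 11 were in the table and 4 reached the floor, of which 2 were higher with dox by 2-fold or more (beside 9.23% of all genes) and 0 lower (beside 5.49%). The higher ones were Jun itself and the phosphatase gene Dusp1, at 610 with dox and 113 without dox. Jun is the named inducer, so its place in this count was given by the design. Ier2 had 187 with dox and 274 without dox, and Junb had 66 with dox and 68 without dox. The Klf-related zinc finger genes Egr1, Egr2 and Egr3 were listed at 0 in both libraries, and Fos stood at 1 with dox and 2 without dox. Also under the floor, Atf3 stood at 45 with dox and 7 without dox, and Myc stood at 4 with dox and 34 without dox.

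The genes whose pair of values was most like that of each naive-state gene were found by the Euclidean distance on log2 of value plus 10 over the 2 libraries, not scaled for length. Nearest to Klf4 were Nfatc2ip, at 323 with dox and 853 without dox, Apex1, at 313 with dox and 948 without dox, and Ldhb, at 312 with dox and 795 without dox. Nearest to Klf2 were Dtymk, at 374 with dox and 742 without dox, 2410141K09Rik and Ivns1abp, with distances between 0.05 and 0.10. Nearest to Klf5 were Mark2, at 255 with dox and 236 without dox, Prpf3 and Ugdh, with distances between 0.01 and 0.02. With 2 libraries many genes share such a pattern, and the likeness carries no more than these values.

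The ES cell label was checked against 7 markers, all of which had values between 73 and 3818 with dox and between 270 and 4342 without dox. Of these 4 were lower with dox by 2-fold or more (Nanog, Esrrb, Utf1 and Zfp42), beside 5.49% of all genes, and 0 were higher, beside 9.23%. Nanog, Esrrb, Zfp42, Sox2 and Pou5f1 are also in the naive network list, so both counts share these genes. Fibroblast markers summed to 78 with dox and 27 without dox over 8 genes, with none at the floor and with Lum and Dcn listed at 0 in both. The largest with dox was Col3a1, at 39 against 2 without dox, and Col1a2 had 19 with dox and 8 without dox. The largest without dox was Postn, at 11 against 8 with dox. Of the trophectoderm markers 4 of 5 were in the table and summed to 443 with dox and 60 without dox. Krt7 made up most of the sum with dox, at 374 with dox and 0 without dox. Under the floor, Cdx2 stood at 34 with dox and 28 without dox, and Hand1 at 17 with dox and 0 without dox. Eomes, also under the floor, was lower with dox, at 18 against 32 without dox. Of the primitive endoderm markers 3 of 6 were in the table and summed to 23 with dox and 12 without dox. Pdgfra, at 8 with dox and 4 without dox, is in both this sum and that of the fibroblast markers. The part of these markers in the Klf values was not tested, and in bulk RNA fewer cells of a type and less RNA per cell cannot be told apart.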

How the data were processed

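Per the labels' protocols, TRIzol RNA went into TruSeq RNA libraries that were read on a NextSeq 500 instrument. The tools bcl2fastq, Bowtie2 and RSEM and the build mm10 are named in the submitters' processing notes, while the sources used here give neither their versions nor the normalization. The deposited values were treated as a score that the authors had normalized and rounded, which was inferred from the values: the quartiles were 14, 62 and 184 in each library, and the sorted values were equal at 75.5% of positions (tolerance 0). Depth is therefore unknown, and no counting interval, count model or test was used. Columns left unused numbered 0.

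For the log2 ratio of dox over no dox, 10 was added to each value. Genes entered with a value of at least 50 in either library, and a 2-fold ratio was called higher or lower, as a description of 2 libraries. The named genes were the 9 members, every other Klf and Sp gene, Jun, list members past 2-fold or else the 2 with the largest values in either library, and the 3 nearest patterns of each naive-state gene. Gm20033, Gm13748, Gm26649, D030028A08Rik, Sp3os, Gm11532, Ier2, Junb, Il6st, Stat3 and Socs3 were added after the values were seen. So were Sox2, Tbx3, Pou5f1, Ctbp1, Ctbp2, Wwp1, Egr1, Egr2, Egr3, Fos, Atf3, Myc and the markers named. The members and lists were chosen with earlier results of these data known. Coordinates, exons and lengths came from GENCODE M21 on GRCm38, the assembly of mm10, and 99.1% of the genes at the floor had a length. Alternatives were pseudocounts of 1 and 50, no floor and a floor of 250, thresholds of 1.5-fold and 4-fold, the median of all genes set to 0, a lowess trend on length removed (fraction 0.3), and other sets. The steps were tested on simulated counts with 4-fold differences and an assumed noise. That test does not show how often the 2-fold calls in these 2 libraries are right. All steps were run with pandas 2.3.3, numpy 2.4.6, statsmodels 0.14.6 and matplotlib 3.10.9 under Python 3.11.15.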

Additional observations from a re-analysis of the deposited data

How the results depend on the processing

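Klf4 stayed at least 2-fold lower and Klf6 at least 2-fold higher with dox under pseudocounts of 1 and 50, no floor, a floor of 250, the median of all genes set to 0 and the length trend removed. The choice of floor cannot change the ratio of a single gene and only decides whether the gene enters. The number of lower members was 1, and it was 2 with a pseudocount of 1 (Klf9 joined Klf4), 4 at a 1.5-fold threshold and 0 at a 4-fold threshold. The number of higher members was 1, and 2 at a 1.5-fold threshold. The median log2 ratio of the naive-state genes, −0.96, was −1.21 without Klf5 and −0.70 after removal of the length trend. That of the other members, −0.24, was −0.52 with the further Klf genes included and 2.74 with a floor of 250, under which Klf6 was the only one of the 6 left. The difference of the medians, −0.72, was then −3.70, and it was −0.43 with the further Klf genes included (an alternative added after the data were seen) and −0.39 with the length trend removed. Of the 9 members, Klf13 was the one whose ratio changed sign, within a range of −0.08 to 0.13. No paired analysis was possible because there is 1 library per group, and no library could be left out. The depth of the libraries is unknown, so counting error could not be given.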
